A study of Mus musculus with 28 samples.

Results

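Translation efficiency was compared between 8 cultures of mouse primary cortical neurons and 6 cultures of MN1 cells, with all TDP-43 genotypes pooled. For each culture, translation efficiency (TE) was the log2 CPM (counts scaled to the size of the library) of ribosome footprints minus the log2 CPM of total mRNA of the same gene. A gene entered where it was protein-coding and had 10 or more counts in both libraries of a culture, which 11712 of 21578 protein-coding genes met in at least 1 culture and 2110 met in all 14. In single cultures, between 3383 and 10518 genes met it. The comparison itself was fitted for the 6689 genes that met it in at least 3 MN1 and 4 neuron cultures. Another 1482 genes met the count minimum in enough MN1 cultures but too few neuron cultures, and 2152 the reverse, and these have no TE difference here.

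The study asked how TDP-43, an RNA-binding protein mutated and aggregated in amyotrophic lateral sclerosis, affects translation. It paired a footprint library with a total mRNA library in each of the 14 cultures, 28 libraries in all. MN1 cells are a line made by fusing mouse spinal motor neurons with neuroblastoma cells. By transient transfection they expressed GFP (2 cultures), human TDP-43 (hTDP-43, 2 cultures) or its A315T mutant (hTDP-43-A315T, 2 cultures). The neurons came from the cortex of C57BL/6J embryos at embryonic day 16 and were lysed after 14 days in vitro, with the mitotic inhibitor Ara-C added earlier. They carried no transgene (WT, 2 cultures), hTDP-43 (3 cultures) or hTDP-43-A315T (3 cultures), each transgene hemizygous under the prion promoter. By the dates in the library titles, the 6 MN1 cultures fall on 2 dates and the 8 neuron cultures on 3, each date shared by cultures of several genotypes. MN1 cells were treated with cycloheximide, which halts elongating ribosomes, at 100 µg/ml for 3 min before lysis, and the neurons were not. Cell type and this treatment therefore cannot be told apart in any value below. Total mRNA was selected by its poly(A) tail and footprints were not, and reads were counted over all exons, untranslated regions (UTRs) included.

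An mRNA's translation efficiency reflects how many ribosomes it carries for its abundance, set mainly by how often ribosomes initiate on it. Ribosomal protein mRNAs begin with a terminal oligopyrimidine (TOP) tract and are known for a translation rate that follows growth signals through mTORC1. Replication-dependent histone mRNAs end in a conserved stem-loop in place of a poly(A) tail, and upstream reading frames in a 5′ UTR commonly lower initiation on the main frame. Neurons are post-mitotic cells with large synaptic and membrane protein needs, whereas MN1 cells divide. TE here is relative within each pair of libraries, so it ranks mRNAs against each other and gives no absolute rate of protein synthesis.

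Neuronal markers were higher in the cortical neurons and proliferation markers in MN1 cells, whereas several defining motor neuron genes were near 0 in MN1 cells. CPM in this paragraph are by plain library totals. The summed total mRNA level of 14 neuronal markers was 310 to 432 CPM in MN1 cultures and 5059 to 7299 CPM in neurons, and that of 8 proliferation markers was 970 to 1477 CPM against 9.99 to 19.7 CPM. The 8 motor neuron markers summed to 881 to 1131 CPM in MN1 cells against 8.33 to 20.5 CPM in the cortical neurons. In MN1 cells most of that was the intermediate filament Prph (806 to 1052 CPM). Isl1 was at 29.4 to 46.5 CPM and Slc18a3 at 19.1 to 36.6 CPM, against 1.39 to 4.37 and 0 to 4.05 CPM in neurons. Chat, which makes acetylcholine, was at 0 to 3.01 CPM in MN1 cells and the motor neuron factor Mnx1 at 0.669 to 1.57 CPM. There, Slc5a7 reached 4.18 CPM at most, Lhx3 6.01 CPM and Isl2 7.84 CPM. The 8 markers of neuroblastoma and the sympathetic lineage summed to 2000.4 to 2400.4 CPM in MN1 cells against 3.04 to 9.05 CPM in the neurons, among them the transcription factor Hand2 at 1047 to 1422 CPM. The 10 astrocyte markers summed to 44.4 to 75.8 CPM in MN1 cells, with 4 of them at 0 throughout, and to 276 to 500 CPM in the neuron cultures. Of these markers, Sox9 went the other way, at 31.4 to 54.2 CPM in MN1 cells against 6.55 to 11.05 CPM in neurons. The largest in the neuron cultures was Slc1a2, at 193 to 385 CPM, whereas Gfap reached 19.5 CPM there at most. In bulk cultures, fewer cells of a type and less RNA per cell cannot be told apart. Footprint libraries held 332370 to 1219222 counts in MN1 cells against 166064 to 2528820 in neurons, and total mRNA libraries 1328528 to 2988339 and 600385 to 6969578, so that 3 counts corresponded to between 0.430 and 18.1 CPM. A total mRNA library of 2 neuron cultures stood apart: Lars2, the gene of the mitochondrial leucyl-tRNA synthetase, took 18.8% of the counts of WT replicate 3 and 14.1% of those of hTDP-43 replicate 3, against 3.09 to 7.49% in the other 12 total mRNA libraries. The hTDP-43 neuron replicates 2 and 3 were also the shallowest cultures.

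Of the 6689 genes fitted, 556 (8.31%) had higher TE in neurons and 483 (7.22%) had lower TE, by edgeR's quasi-likelihood test of the interaction of cell type and library type with Benjamini-Hochberg adjustment below 0.05. Most differences were modest: 42 of the higher and 133 of the lower genes differed at least 2-fold. The median log2 difference over all fitted genes was 0.04, and the 5th and 95th percentiles were -0.75 and 0.63. All 8 neuron cultures lay above all 6 MN1 cultures for 182 of the 556 higher genes, and below them for 119 of the 483 lower genes. Without WT replicate 3 and hTDP-43 replicate 3 of the neurons, 784 genes were higher and 726 lower. The balance of directions depended on the scaling. Libraries were scaled by TMM, edgeR's trimmed mean, and with plain library totals in its place 1778 genes were higher and 189 lower (90.4% of calls higher, against 53.5% with TMM), with a median log2 difference over all genes of 0.33. Every difference below is therefore relative to the other genes of the same libraries, and the CPM of single genes below are TMM-scaled.

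The number of calls also depended on how cultures of 1 label date were treated. The test above counts all 14 cultures as separate, and limma on the log2 TE of each culture did the same and called 361 genes higher and 277 lower. With the label date as a random block in that limma fit, chosen after the data were seen, 194 genes were higher and 157 lower, and 350 of these 351 were also among the 1039. With 1 mean for each label date, 2 against 3, limma called 6 genes higher and 11 lower. All 1039 genes kept their direction in both fits. Of 95 called genes that the naming rule chose, 65 remained called with the random block, and 9 with 1 mean for each date, namely Slit3, Arpc1a, Eif4a2, Arpp21, Epha5, Rpl22, Rps15a, Ptbp1 and Clk1. Among the rule-chosen genes described below, Pabpc1, Eif2s2, Eif5b, Bace1, Ibtk, Odc1, mt-Nd6, mt-Nd5, Sdha, Mrps5, Psmc4, Nars, Eprs, Atp6v0e, Nsf, Rab3c, Actb, Rrm1, Ier5, Srebf1, Col4a2, Camta1 and Dennd4a were not called with the random block. Genes named after their values were seen are not covered by this list. That fit covered all 6689 genes, of which 157 were lower and 194 higher. Among the groups below, the lower calls were 11 of 76 ribosomal proteins, 4 of 6 histones, 4 of 44 splicing regulators and 2 of 73 mitochondrial ribosomal proteins. Higher calls were 4 of 29 chaperones, 4 of 26 cytoskeletal genes, 3 of 16 V-ATPase subunits, 3 of 24 cholesterol synthesis genes and 3 of 15 glycolysis enzymes. Further higher calls were 2 of 21 synaptic vesicle genes, 2 of 76 respiratory chain genes and 1 of 32 proteasome subunits. For mitochondrial ribosomal proteins, the respiratory chain and the proteasome, these shares were near those of all genes.

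**Figure D1:**
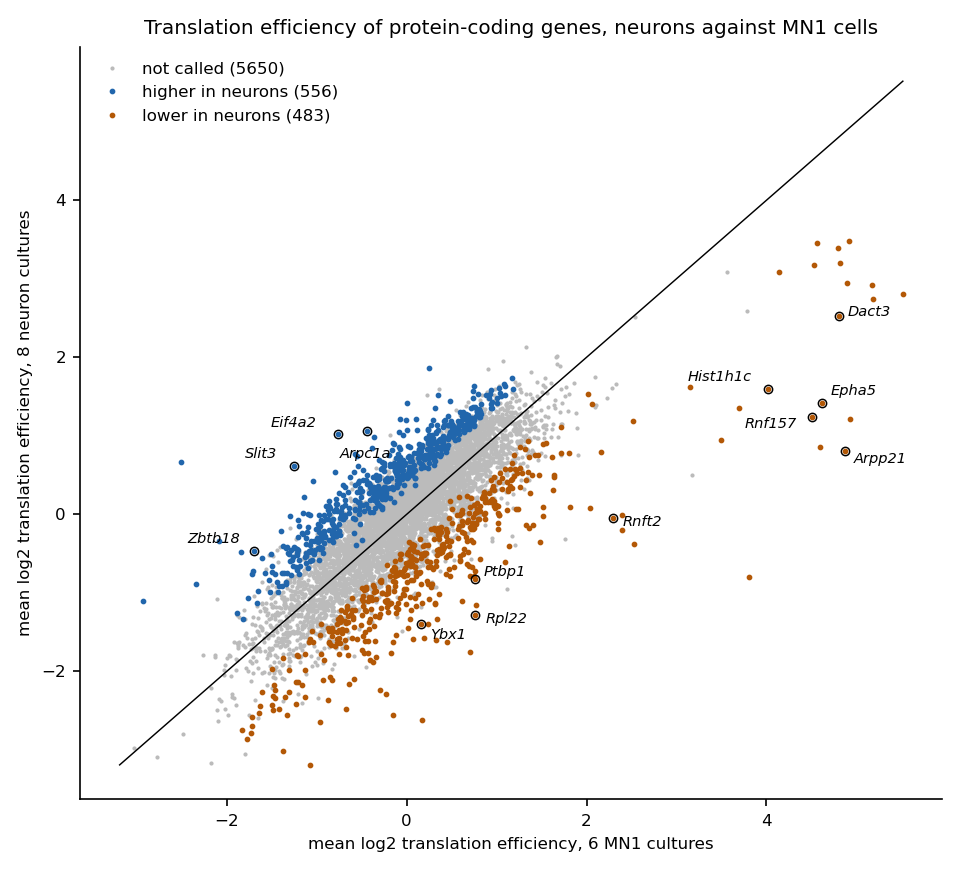
Mean log2 TE of each of the 6689 fitted protein-coding genes in the 6 MN1 cultures (horizontal axis) and the 8 neuron cultures (vertical axis), with the line of equality. Blue points are the 556 genes with higher TE in neurons, orange points the 483 with lower TE, and circled points are genes described in the text. The 24 genes at the right have a mean MN1 TE above 3, and 21 of them are orange. They were picked on the same MN1 values that enter the difference.

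Calls fell on genes with higher, lower and similar mRNA levels. Of the 1039 genes called, 535 had total mRNA levels within 1 log2 unit between the cell types. Among the 556 higher genes, total mRNA was more than 1 log2 unit higher in neurons for 146 and lower for 129, and among the 483 lower genes for 136 and 93. Over all 6689 fitted genes these counts were 1497 (22.4%) and 1420 (21.2%), against 26.3% and 23.2% of the higher and 28.2% and 19.3% of the lower genes.

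Among genes with 10 or more counts in all 28 libraries and no overlap between cell types, the largest increase in neurons was in Slit3 (chr11:35121224-35708507, GRCm38, plus strand), which encodes a secreted axon guidance ligand of Robo receptors. Slit3 log2 TE was -1.76 at the lowest, -1.23 at the median and -0.91 at the highest of the MN1 cultures, and -0.45, 0.89 and 1.03 in neurons. The difference was 1.91 ± 0.20 (SE, 6 and 8 cultures), a 3.77-fold increase (edgeR adjusted p = 1.01e-06). Its footprints were alike in both cell types, at 162 and 145 CPM, whereas its total mRNA was 382 CPM in MN1 cells and 94.0 CPM in neurons. Arpc1a (chr5:145083830-145108761, plus strand), a subunit of the actin-nucleating Arp2/3 complex, showed another pattern. Its TE ran from -0.81 through a median of -0.40 to -0.26 in MN1 cells and from 0.61 through 1.04 to 1.61 in neurons, a difference of 1.48 ± 0.14 (edgeR adjusted p = 2.21e-07). Its total mRNA differed little, at 104 and 139 CPM, and its footprints were 76.6 and 292 CPM.

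Of the other 10 genes among the 12 largest increases, Zbtb18 (chr1:177442351-177450764, plus strand), a repressor needed for cortical neuron development, had TE between -1.96 and -1.51 in MN1 cultures (median -1.65) and between -0.94 and -0.12 in neurons (median -0.45). It was 2.44-fold higher, with a log2 difference of 1.29 ± 0.15 (edgeR adjusted p = 3.78e-06). Satb1, a chromatin organiser of neurons and lymphocytes, differed by 1.33 ± 0.20. Mapk8ip3, a kinesin adaptor of axonal transport, differed by 1.19 ± 0.18, and Olfm1, a secreted glycoprotein of the brain, by 1.19 ± 0.15. Rtn4, which encodes the neurite growth inhibitor Nogo, had TE of 0.13 to 0.55 in MN1 cells against 0.93 to 2.21 in neurons, a difference of 1.17 ± 0.16. Eno2, the neuronal enolase of glycolysis, had TE of -0.89 to 0.12 and 0.44 to 1.05 and differed by 1.17 ± 0.16. In each of these genes the MN1 and neuron cultures did not overlap, which was part of the rule that chose them. Gprasp1, a sorting protein of G protein-coupled receptors (1.19 ± 0.18), Lrp12 (1.11 ± 0.18), the kinase Stk25 (1.05 ± 0.14) and the mitochondrially encoded mt-Co1 (1.33 ± 0.28) complete the 12.

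Decreases reached further than increases. Arpp21 (chr9:112065091-112235938, minus strand), a cAMP-regulated phosphoprotein that binds RNA, had TE of 3.80, 5.01 and 5.52 at the lowest, median and highest MN1 culture and 0.27, 0.64 and 1.5 in neurons. The difference was -4.17 ± 0.25, or 18-fold (edgeR adjusted p = 1.46e-10). Its total mRNA was 18.9 CPM in MN1 cells and 465 CPM in neurons, while its footprints were similar, at 641 and 841 CPM. Epha5 (chr5:84054761-84417382, minus strand), an ephrin receptor, had the same form, with a difference of -3.46 ± 0.36 and total mRNA of 11.3 and 282 CPM against footprints of 364 and 602 CPM. The ubiquitin ligases Rnf157 (-3.28 ± 0.37) and Rnft2 (-2.53 ± 0.27), and Dact3 (-2.28 ± 0.27), an inhibitor of Wnt signalling, also had few mRNA counts for their footprints in MN1 cells. Dact3 took 13624 footprint CPM in MN1 cells and 5937 in neurons, on total mRNA of 413 and 987 CPM.

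Arpp21, Epha5, Rnf157 and Dact3 belong to a small set with a very high footprint to mRNA ratio. In MN1 cells, 24 of the 6689 genes had a mean log2 TE above 3, and 21 of those were called lower in neurons, as were 7.22% of all genes. The 24 were picked on MN1 values that also enter the difference. Lower calls are favoured by that choice, and the count is no test. The same threshold was passed in neurons by 7 genes, all of them among the 24. Of the 24, 6 were histone genes of the list below and 2 more were the histone genes Hist3h2ba and Hist4h4. Counts per gene do not show where in a transcript the reads lie, so reads stacked at 1 position and reads spread along the coding sequence cannot be told apart in these values.

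Ybx1 (chr4:119277981-119294604, minus strand), a cold shock domain protein that packages mRNA and represses its translation, was among the lower genes with ordinary TE. Ybx1 TE ran from -0.08 through 0.15 to 0.40 in MN1 cells and from -2.16 through -1.35 to -0.90 in neurons, a difference of -1.48 ± 0.17 (edgeR adjusted p = 3.78e-06). Tomm20, a receptor of the mitochondrial import channel, had TE of -0.41 to 0.23 and -1.99 to -1.13, a difference of -1.44 ± 0.15 (edgeR adjusted p = 1.18e-06). Total mRNA of both genes was somewhat higher in neurons, at 488 against 353 CPM for Ybx1 and 274 against 222 CPM for Tomm20, and their footprints were lower. The transcription factor Nfib (-1.14 ± 0.19), the zinc finger protein Zc3h7b (-1.10 ± 0.20), the postsynaptic scaffold Dlg4 (PSD-95, -1.06 ± 0.17) and the CaMKII inhibitor Camk2n1 (-1.03 ± 0.15) followed. Dlg4 and Camk2n1 were neuronal mRNAs by level, with total mRNA of 1269 and 763 CPM in neurons against 63.2 and 66.5 CPM in MN1 cells. The plot of the largest differences shows each culture of all 24 genes.

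**Figure D2:**
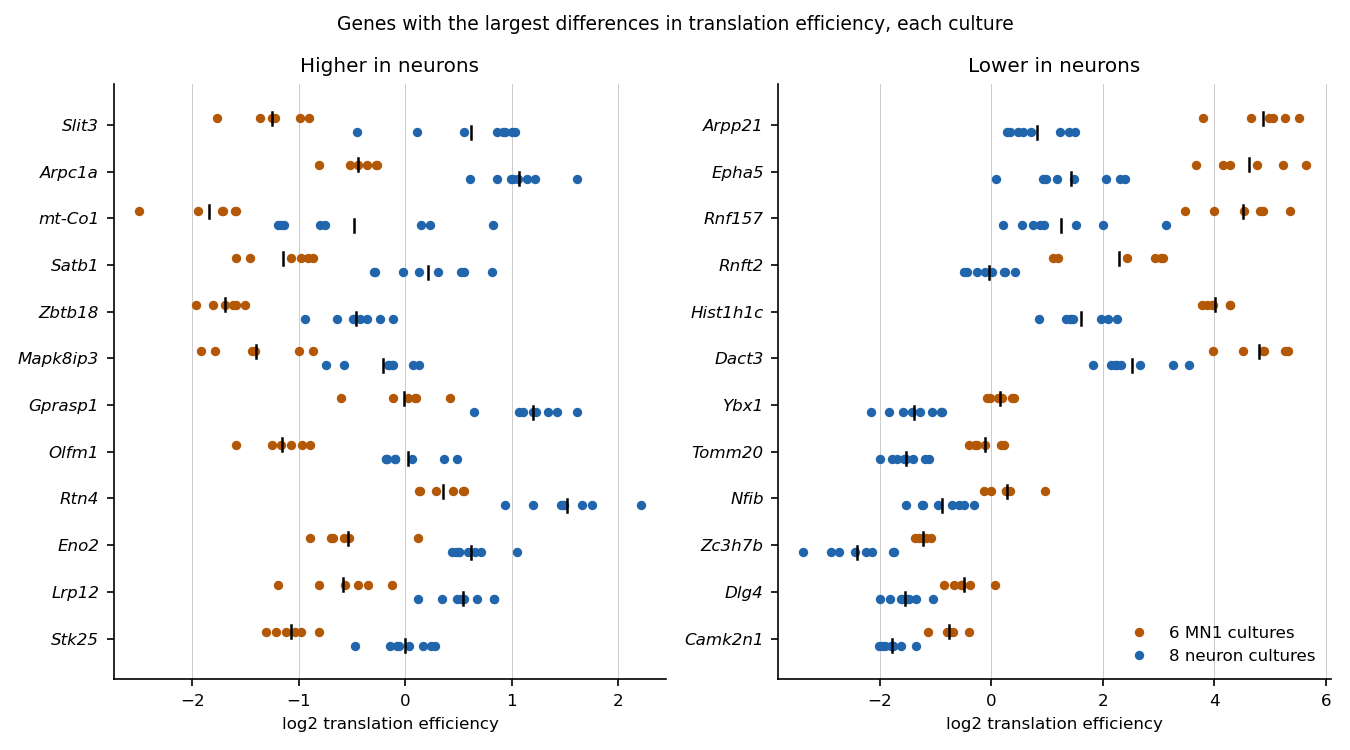
Log2 TE (horizontal axis) of the 12 genes with the largest increase (left) and the 12 with the largest decrease (right) in neurons, 1 point for each of the 6 MN1 cultures (orange) and 8 neuron cultures (blue), with black ticks at the means. No gene has overlapping cell types. Arpp21, Epha5, Rnf157, Hist1h1c and Dact3 lie above 3 in all MN1 cultures.

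Replication-dependent histones were the group with the largest decrease. Of 29 listed histone genes, 6 had counts enough to be fitted. All 6 were lower in neurons (100%, against 7.22% of all genes), with a median log2 difference of -1.66 and a range from -2.37 to -1.10. Hist1h1c (chr13:23738808-23740367, plus strand), a linker histone, had TE of 3.77, 3.96 and 4.28 at the lowest, median and highest MN1 culture and of 0.86, 1.45 and 2.26 in neurons. The difference was -2.37 ± 0.18 (edgeR adjusted p = 8.59e-09). Its footprints were 997 CPM in MN1 cells and 103 CPM in neurons, and its poly(A)-selected mRNA 61.6 and 33.4 CPM. Of the core histones H4, Hist1h4c differed by -2.03 ± 0.35, Hist1h4h by -1.78 ± 0.30 and Hist2h4 by -1.53 ± 0.26. The group median was 4.41 to 5.05 in MN1 cultures and 1.92 to 3.77 in neurons, with the 2 Lars2-rich cultures the lowest, and without those cultures it was -1.36 with all 6 genes still called. H4 genes encode nearly the same sequence, so reads among them may be assigned to the wrong copy. The mRNA end that sets these transcripts apart from others is shown here, since mRNA selected by poly(A) under-represents transcripts without a tail. The lines give the histone stem-loop in capitals with 4 bases on either side, 5′ to 3′, from the GRCm38.p6 genome sequence:
Hist1h1c: aaaaGGCTCTTTTCAGAGCCacca
Hist1h1e: caaaGGCTCTTTTCAGAGCCaccc
Hist1h4c: aaaaGGCCCTTTTCAGGGCCaccc
Hist1h4d: caaaGGCCCTTTTCAGGGCCacta
Hist1h4h: caaaGGCCCTTTTCAGGGCCgccc
They lie at chr13:23739508-23739531 (plus), chr13:23621778-23621801 (minus), chr13:23698085-23698108 (minus), chr13:23581946-23581969 (plus) and chr13:23531454-23531477 (plus), beginning 27 to 43 bases after the stop codon. Of 21380 annotated GENCODE coding transcripts searched, 32 held this stem-loop. Among the fitted genes, 7 of 6689 held it, and all 7 were lower in neurons, the other 2 being Hist3h2ba (-2.32 ± 0.18) and Hist4h4 (-2.21 ± 0.25). The annotated transcripts of the 5 genes printed run on for 46 to 1153 bases past the loop. These TE values therefore compare all footprints with the tailed part of the mRNA only, and the tailed share in each cell type was not measured. The proliferation markers given above also were lower in neurons, and their part in this result was not tested.

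Cytosolic ribosomal proteins, the subunits of the ribosome itself, were the largest group with a decrease. Of 79 listed, 76 were fitted, and 35 of these (46.1%, against 7.22% of all genes) were lower in neurons and 0 higher, with a median log2 difference of -0.53 against 0.04 over all genes. By point estimate 74 of the 76 lay below 0. Rpl22 (chr4:152325742-152334071, plus strand), a subunit with a paralog of partly shared function, had TE of 0.58, 0.70 and 1.16 at the lowest, median and highest MN1 culture and of -2.14, -1.35 and 0.30 in neurons. It differed by -2.16 ± 0.18 (edgeR adjusted p = 6.10e-08). Rps15a differed by -1.52 ± 0.14 (edgeR adjusted p = 2.63e-07), with MN1 cultures from 1.06 to 1.86 and neuron cultures from -0.71 to 0.21. Rps20 differed by -1.57 ± 0.18 and Rpl41, which encodes the shortest subunit, by -1.55 ± 0.20. In Rpl22, Rps15a and Rps20 the cultures did not overlap, and in Rpl41 the highest neuron culture, at 0.66, lay above the lowest MN1 culture, at 0.49. Ribosomal protein mRNA was also lower in neurons, by a median log2 difference of -1.73, and footprints by -2.20. Many of these genes have near-identical processed pseudogenes, so single values are uncertain.

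The neuron cultures did not behave alike for this group. The median TE of the 76 ribosomal protein genes was 0.68 to 1.06 in the 6 MN1 cultures. The neurons gave -0.09 for WT replicate 2 and 1.23 for WT replicate 3, then 0.48, -0.05 and 0.82 for the hTDP-43 replicates 1 to 3, and 0.46, -0.01 and 0.14 for the hTDP-43-A315T replicates 1 to 3. The 2 cultures with total mRNA rich in Lars2 counts thus sat at or above the MN1 range, and the other 6 below it. Without them, 55 ribosomal protein genes were lower and the median difference was -0.66. With plain library totals the median was -0.24 and 13 were lower, and without MN1 hTDP-43-A315T replicate 1 there were 23. The part of the library differences in these values was not tested.

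The start of these mRNAs is shown because the TOP tract defines the class. Each line gives 30 bases around a RefSeq start site on GRCm38.p6, from 10 bases before it, 5′ to 3′ on the gene's strand. Capitals mark the first C that begins within 5 bases of the start and is followed by at least 4 C or T bases, with that pyrimidine run. The first 4 genes are ribosomal proteins that were lower in neurons, and Eif3l and Vim are other TOP mRNAs that were not called:
Rps15a: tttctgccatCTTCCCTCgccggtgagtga
Rps27: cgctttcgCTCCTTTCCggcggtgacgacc
Rpl39: gctccgCCTCTagcgacttcttctaatcgc
Rps23: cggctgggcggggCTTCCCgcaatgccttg
Eif3l: gagttCTTCTTCCgctctctcccacgggct
Vim: ttgtccagtCCTCTgccactcttgctccgg
These windows lie at chr7:118116128-118116157 (minus), chr3:90213629-90213658 (minus), chrX:37085203-37085232 (minus), chr13:90923112-90923141 (plus), chr15:79075213-79075242 (plus) and chr2:13574301-13574330 (plus). The tract was found in 27 of 56 fitted ribosomal protein genes with a RefSeq window (48.2%), in 24% of fitted genes with a window and in 18.3% of all 32851 windows. The 27 ribosomal protein genes with it had a median difference of -0.46, with 11 lower, and the 29 without it a median of -0.59, with 16 lower. Among all other fitted genes the medians were 0.06 with the tract and 0.04 without it. A RefSeq start can miss the start used in a cell by several bases, so an absent match says only that the letters were not in this window.

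Of 22 other listed TOP mRNAs, which encode translation factors and growth genes, 21 were fitted. Of these, 1 was lower (4.76%, against 7.22% of all genes) and 0 higher. The lower gene was Pabpc1, the main cytoplasmic poly(A)-binding protein, with a difference of -0.76 ± 0.20 (edgeR adjusted p = 0.0144). The group's median difference was -0.03 and turned to 0.26 with plain library totals. Tpt1 (-0.36 ± 0.15), Eif3l (0.30 ± 0.13) and Eef1d (-0.21 ± 0.11) did not pass the test. The difference between the 2 TOP groups was not tested.

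Among translation initiation factors, a single paralog stood far from the rest. Eif4a2 (chr16:23107444-23114136, plus strand), a form of the eIF4A helicase abundant in brain, had TE of -1.31, -0.57 and -0.44 at the lowest, median and highest MN1 culture and of 0.70, 1.09 and 1.27 in neurons. The difference was 1.68 ± 0.16, a 3.21-fold increase (edgeR adjusted p = 2.63e-07), and the cultures did not overlap. Of the 34 factors fitted of 35 listed, it was the 1 higher gene (2.94%, against 8.31% of all genes). Another 4 were lower (11.8%, against 7.22%). Eif1ax, which scans for the start codon with the small subunit, differed by -0.96 ± 0.14, and Eif2s2, the beta subunit of eIF2, by -0.84 ± 0.18. Eif5b, which joins the ribosomal subunits, differed by -0.74 ± 0.21. The median over the 34 was 0.08, close to that of all genes, and turned to -0.02 without WT replicate 3 of the neurons. Cytosolic aminoacyl-tRNA synthetases, which charge tRNAs, were 3 higher (13%, against 8.31% of all genes) and 1 lower (4.35%, against 7.22%) of 23, with a median of 0.16. Mars differed by 0.51 ± 0.12 and Nars by 0.42 ± 0.11. Eprs was lower, by -0.63 ± 0.18, but without MN1 GFP replicate 2 or MN1 hTDP-43 replicate 2 its call was lost, at -0.59 and -0.57.

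Chaperones fold newly made proteins and refold damaged ones. Of 31 listed, 29 were fitted, and 12 of these (41.4%, against 8.31% of all genes) were higher in neurons, 1 was lower and 16 were not called, with a median difference of 0.38. The group's median TE was 0.60 to 0.81 in the MN1 cultures and 0.95 to 1.31 in the neuron cultures, so that no neuron culture reached down to the MN1 range. Hspa9, the mitochondrial Hsp70, had TE of 0.26, 0.47 and 0.49 at the lowest, median and highest MN1 culture and of 0.98, 1.22 and 1.33 in neurons, a difference of 0.79 ± 0.11 (edgeR adjusted p = 5.54e-05). Pdia6, a disulfide isomerase of the endoplasmic reticulum, differed by 0.64 ± 0.12, its lectin chaperone Calr by 0.64 ± 0.14, and Tcp1, a subunit of the chaperonin that folds actin and tubulin, by 0.62 ± 0.13. Chaperone mRNA was lower in neurons by a median log2 difference of -1.48 and footprints by -1.15, so the 2 quantities did not differ in proportion. The number of higher chaperones was 6 or 7 without any 1 of 9 cultures (MN1 GFP replicate 2, MN1 hTDP-43 replicate 2, both of MN1 hTDP-43-A315T, and of the neurons WT replicate 2, hTDP-43 replicate 1 and all hTDP-43-A315T replicates), with the median between 0.31 and 0.39. The 1 lower gene was Dnaja1, an Hsp40 co-chaperone, at -0.68 ± 0.16. Proteasome subunits, which degrade proteins, were 6 higher (18.8%, against 8.31% of all genes) and 0 lower of 32, with a median of 0.09. Psmd2 differed by 0.72 ± 0.12 (edgeR adjusted p = 0.000389) without overlap of cultures, and Psmc4 by 0.49 ± 0.13. The count was 2 or 3 without any 1 of 9 cultures (MN1 GFP replicate 1 or 2, MN1 hTDP-43 replicate 2, MN1 hTDP-43-A315T replicate 1, neuron hTDP-43 replicate 1 or 3, and each neuron hTDP-43-A315T replicate).

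The vacuolar ATPase acidifies lysosomes and drives the loading of synaptic vesicles. Of 18 listed subunits, 16 were fitted. Of these, 6 (37.5%, against 8.31% of all genes) were higher in neurons, 1 was lower and 9 were not called, and the median difference was 0.28. Atp6v1a, its catalytic subunit, had TE of 0.02, 0.24 and 0.48 at the lowest, median and highest MN1 culture and of 0.62, 1.08 and 1.46 in neurons, a difference of 0.83 ± 0.14 (edgeR adjusted p = 0.000446). Atp6v0d1 differed by 0.55 ± 0.13 and Atp6v1b2 by 0.50 ± 0.12, and the cultures overlapped in none of these genes. The exception was Atp6v0e, a small membrane subunit, at -1.04 ± 0.21, measured in 10 of the 14 cultures and not called by limma on log2 TE. The group's median TE was 0.27 to 0.39 in MN1 cultures and 0.47 to 1.08 in neurons, with WT replicate 3 the highest. Without the 2 Lars2-rich cultures, 6 were higher and 2 lower, with a median of 0.23.

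Synaptic vesicle and release genes were 5 higher and 2 lower of 21 fitted (31 listed), with a median of 0.28. That is 23.8% higher and 9.52% lower, against 8.31% and 7.22% of all genes. The 10 that were not fitted had too few counts in MN1 cells, in neurons or in both. Syp, the vesicle protein synaptophysin, had TE of -0.13, -0.02 and 0.26 at the lowest, median and highest MN1 culture and of 0.72, 0.86 and 0.98 in neurons. It differed by 0.85 ± 0.12 (edgeR adjusted p = 7.23e-05), on top of total mRNA of 159 CPM in MN1 cells and 1118 CPM in neurons. Unc13a, which primes vesicles for release, differed by 0.63 ± 0.13, and Nsf, the ATPase that takes SNARE complexes apart, by 0.50 ± 0.14. The call of Nsf was lost without MN1 hTDP-43-A315T replicate 1, at 0.47. Rab3c, a vesicle GTPase, was lower, at -0.86 ± 0.24, and lost its call without MN1 hTDP-43-A315T replicate 2, at -0.73. Without either MN1 hTDP-43-A315T culture, 3 genes of the group were higher. The group's median TE was -0.08 to 0.06 in MN1 cultures and 0.20 to 0.33 in neurons, a narrow range in both cell types. It was the group with the largest mRNA difference, at a median of 3.30, and its footprint difference was 3.5.

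Cholesterol synthesis enzymes and their SREBP regulators were 9 higher (37.5%, against 8.31% of all genes) and 1 lower (4.17%, against 7.22%) of 24 fitted. Their median difference was 0.23. Hmgcs1, a synthase early in the pathway, had TE of 0.12, 0.47 and 0.61 at the lowest, median and highest MN1 culture and of 0.85, 1.13 and 1.49 in neurons, a difference of 0.72 ± 0.14 (edgeR adjusted p = 0.00148). Sqle, squalene epoxidase, differed by 0.56 ± 0.12. Srebf1, a transcription factor of lipid synthesis, differed by 0.90 ± 0.19, with overlapping cultures. The group's median TE was 0.02 to 0.21 in MN1 cells against 0.35 to 0.75 in neurons, again with no overlap. The number of higher genes was 5 without any 1 of 6 cultures (MN1 GFP replicate 2, MN1 hTDP-43-A315T replicate 2, and the neuron replicates 1 and 3 of hTDP-43 and of hTDP-43-A315T). Its mRNA was higher in neurons by a median of 0.60 and its footprints by 1.01.

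**Figure D3:**
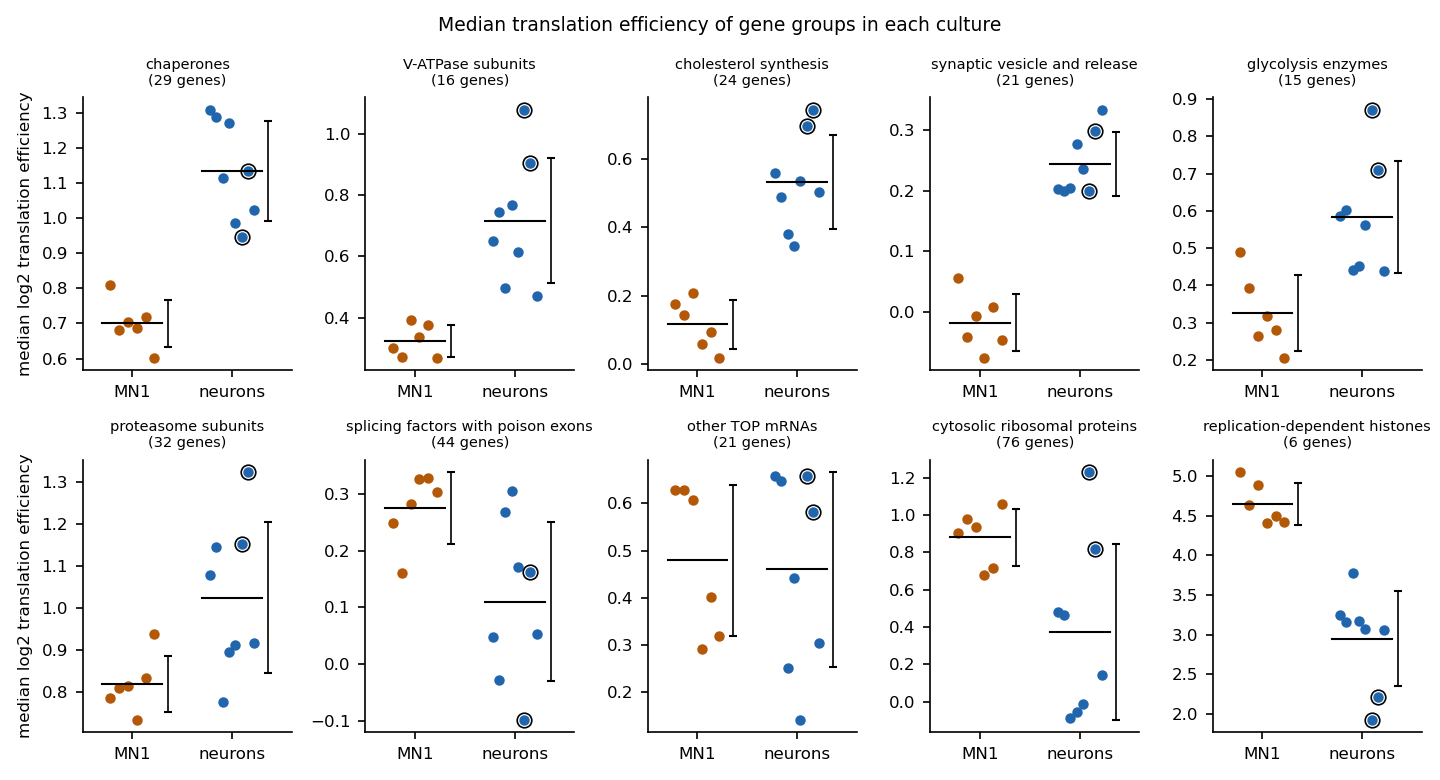
Median log2 TE (vertical axis, scaled for each panel) of 10 gene groups in each of the 6 MN1 cultures (orange) and 8 neuron cultures (blue). Horizontal lines are means, bars beside them 1 SD over cultures, and black rings mark the neuron cultures WT replicate 3 and hTDP-43 replicate 3, rich in Lars2 counts. The cell types do not overlap for chaperones, V-ATPase subunits, cholesterol synthesis, synaptic vesicle genes and histones, and the ringed cultures sit at or above the MN1 level for ribosomal proteins.

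Of energy metabolism genes, glycolysis enzymes were 3 higher (20%, against 8.31% of all genes) and 0 lower (against 7.22%) of 15 fitted, with a median of 0.17. Besides Eno2, the higher ones were Pfkm, the muscle-type phosphofructokinase (0.67 ± 0.14), and Ldha, lactate dehydrogenase A (0.62 ± 0.14). Nuclear-encoded subunits of the respiratory chain were 6 higher (7.89%, against 8.31% of all genes) and 1 lower (1.32%, against 7.22%) of 76, so neither share was above that of all genes. The higher ones included Ndufs1 of complex I (0.78 ± 0.15) and Sdha of complex II (0.48 ± 0.12). Their group median was -0.14 and turned to 0.16 with plain library totals, to 0.20 with the control cultures alone, and to 0.05 with the hTDP-43 cultures alone. The 2 Lars2-rich neuron cultures had group medians of 1.66 and 1.65, above the 0.89 to 1.28 of the MN1 cultures, while the other 6 neuron cultures lay between 0.56 and 1.10. Without those 2 cultures, 7 respiratory chain genes were higher and 26 lower, with a median of -0.28. Of 13 mitochondrially encoded genes, 8 were fitted. Of these, 2 were higher (25%, against 8.31% of all genes), 1 was lower (12.5%, against 7.22%) and 5 were not called, and the culture medians overlapped. The higher ones were mt-Co1 and mt-Nd5 (0.77 ± 0.24), and the call of mt-Nd5 was lost without any 1 of 7 cultures, at 0.68 to 0.78. mt-Co1 (chrM:5328-6872), a subunit of complex IV, had TE of -2.50 to -1.58 in MN1 cells against -1.20 to 0.82 in neurons and differed by 1.33 ± 0.28 (edgeR adjusted p = 0.00271). mt-Nd6 differed by -1.09 ± 0.24, and it lies on the strand opposite to its neighbours. The counting command in the file headers sets no strand option, so its reads may come from either strand. Mitochondrial ribosomal proteins were 0 higher and 7 lower of 73 (9.59%, against 7.22% of all genes), a lower share near that of all genes. Their median was -0.08 and was 0.21 with plain library totals. Mrps17 had the smallest adjusted p of them, at -0.82 ± 0.15.

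Of 26 cytoskeletal genes fitted, 6 were higher (23.1%, against 8.31% of all genes), 3 lower (11.5%, against 7.22%) and 17 not called. Their median was 0.12, and it was 0.05 without the 2 Lars2-rich cultures. The 6 higher genes were among 8 fitted tubulins, the subunits of microtubules, and Tubb5 (0.38 ± 0.14) and Tubg1 (-0.30 ± 0.17) did not pass the test. Tubb4b differed by 0.83 ± 0.12 (edgeR adjusted p = 4.99e-05), Tuba1b by 0.79 ± 0.16 and Tubb2a by 0.79 ± 0.19, and tubulin genes share long identical stretches, so reads can be assigned to a sister gene. Marcks, an actin-binding kinase substrate, was lower by -0.67 ± 0.13, but with plain library totals it was not called, at -0.36. Actb, cytoplasmic actin, was lower by -0.47 ± 0.14 and lost its call without MN1 GFP replicate 1, at -0.45. The third lower gene was Dpysl2, a microtubule-binding protein of growing axons, at -0.57 ± 0.18. Without MN1 GFP replicate 1, 1 gene of the group was lower.

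Dendritically localised mRNAs, which neurons transport into dendrites and can translate near synapses, were 1 higher and 3 lower of 16 fitted (28 listed). These shares were 6.25% and 18.8%, against 8.31% and 7.22% of all genes. Their median was -0.11 and turned to 0.20 with plain library totals, and 5 were lower without WT replicate 2 of the neurons. Dlg4 had TE of -0.85, -0.54 and 0.07 at the lowest, median and highest MN1 culture and of -2.0, -1.55 and -1.05 in neurons (edgeR adjusted p = 0.000353). App, the amyloid precursor protein, moved the other way, from 0.69 to 1.12 in MN1 cells to 1.31 to 1.75 in neurons, a difference of 0.65 ± 0.13.

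Splicing regulators whose genes also make transcripts with a poison exon, retained in the nucleus or degraded, were 0 higher and 7 lower of 44 fitted. The lower share was 15.9%, against 7.22% of all genes. Their median was -0.21, and it turned to 0.09 with plain library totals. Without neuron hTDP-43 replicate 1, 3 were lower, and without neuron hTDP-43-A315T replicate 1, 4. Ptbp1 (chr10:79854427-79864771, plus strand), the splicing repressor that neurons switch off, had TE of 0.62 to 0.99 in MN1 cells against -1.26 to -0.35 in neurons. It differed by -1.53 ± 0.16 (edgeR adjusted p = 1.86e-06), with total mRNA of 514 and 25.8 CPM. The kinase Clk1, whose gene makes a nuclear intron-retaining transcript, differed by -1.37 ± 0.26 and Srsf9 by -1.03 ± 0.17, neither with overlapping cultures, and Luc7l3 by -1.29 ± 0.28 with overlap. Clk1 met the count minimum in 9 of the 14 cultures, Ptbp1 in 10 and Srsf9 in 12. Neuron footprints were 6.62 to 24.6 TMM-scaled CPM for Clk1 and 10.8 to 17.7 for Ptbp1, where 3 counts are up to 18.1 CPM by plain library totals. Counts per gene sum all isoforms, so untranslated isoforms enter the mRNA term.

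Cell cycle and replication genes were 1 higher (Rrm1, a subunit of ribonucleotide reductase, 0.72 ± 0.16) and 0 lower of 12 fitted. The higher share was 8.33%, near the 8.31% of all genes. The list holds 36 genes, and those that were fitted are the ones with enough counts in neurons, whose proliferation markers were near 0. Footprints and mRNA of the fitted genes were both far lower in neurons, by medians of -2.74 and -2.73, and their median TE difference was 0.12.

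The remaining classes were small, with 5 to 18 genes fitted, so that 1 call is a large share. Over all genes, 8.31% were higher and 7.22% lower. Of 18 fitted mRNAs with upstream reading frames that respond to the integrated stress response, 2 were higher, Bace1 (0.61 ± 0.18) and Ibtk (0.73 ± 0.24), and 0 lower. Each of those 2 calls was lost on leaving out any of 5 single cultures, with values of 0.53 to 0.55 for Bace1 and 0.65 to 0.76 for Ibtk. Polyamine genes had 1 gene in each direction of 6 (16.7% each). Odc1, ornithine decarboxylase, differed by 0.61 ± 0.16, and Azin1, the inhibitor of its antizyme, by -0.76 ± 0.14 (edgeR adjusted p = 0.00122). Of 5 mRNAs with an iron-responsive element, 1 was higher and 0 lower, and the ferritins Fth1 (0.20 ± 0.20) and Ftl1 (0.08 ± 0.24) did not pass the test. Ferritin TE was low in both cell types, with medians of -1.88 and -1.84 for Fth1. Selenoproteins, whose selenocysteine is read from a stop codon, were 0 higher and 0 lower of 14 by edgeR, and Selenoi came closest, at -0.45 ± 0.16 (adjusted p = 0.0648). Immediate-early genes were 1 higher (Ier5, 0.57 ± 0.19) and 0 lower of 12, a call lost without any of 10 single cultures at 0.49 to 0.60. Extracellular matrix genes were 1 higher, the brain proteoglycan Bcan (1.01 ± 0.19), and 1 lower of 8. The lower one was Col4a2 (-0.93 ± 0.30), lost without any of 5 MN1 cultures at -0.998 to -0.84.

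Several of these values changed on leaving out the 2 Lars2-rich neuron cultures, a fit with 784 genes higher and 726 lower of 7075. Without them, the median difference was -0.03 for mRNAs with an iron-responsive element in place of 0.20, and -0.37 for polyamine genes in place of -0.23. It was -0.13 for mitochondrial ribosomal proteins, with 9 lower, and 0.02 for initiation factors, with 3 higher and 5 lower. The stress response mRNAs then had 5 higher and 2 lower, and the other TOP mRNAs 3 lower. Cell cycle genes had 3 higher and a median of 0.25, immediate-early genes 0 higher and 1 lower, extracellular matrix genes 1 higher and 2 lower, and selenoproteins 1 lower.

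**Figure D4:**
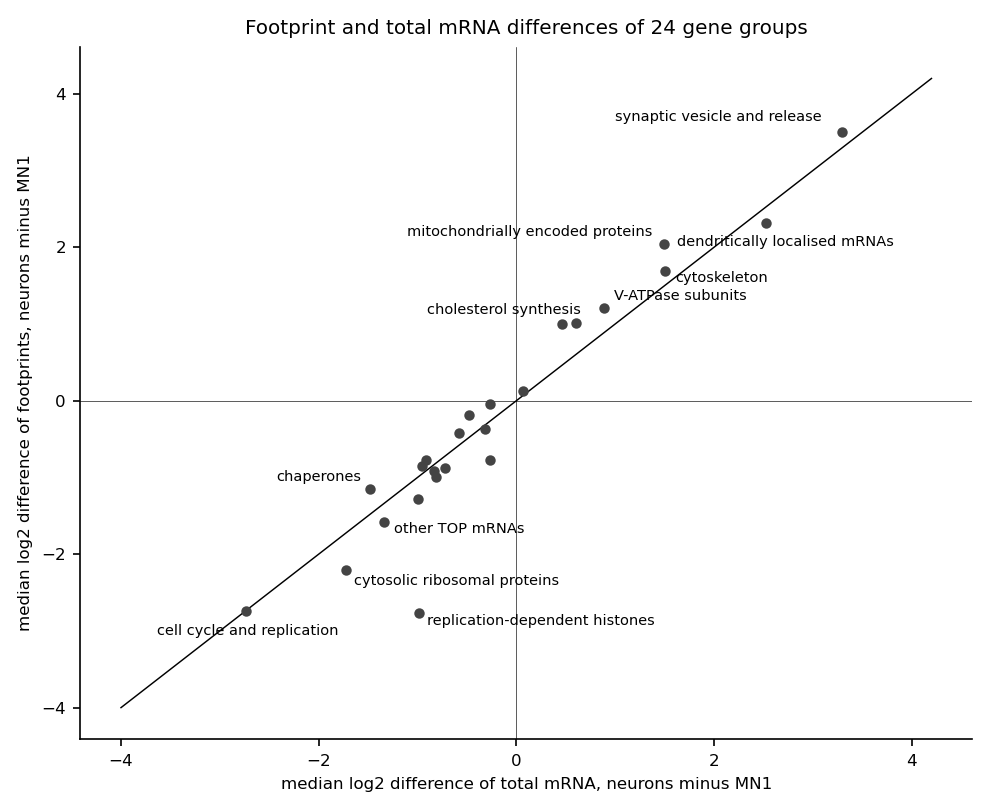
Median log2 difference of footprints (vertical axis) against that of total mRNA (horizontal axis), neurons minus MN1, for 24 gene groups, with the line on which TE does not differ. Synaptic vesicle genes lie at 3.30 and 3.5 and cell cycle genes at -2.73 and -2.74, both near the line, and histones (-0.98 and -2.77) and ribosomal proteins (-1.73 and -2.20) lie below it.

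The genes that the study followed up were chosen on these same libraries, so their values are no independent evidence. Mid1ip1, a regulator of lipid synthesis, had TE of 0.05, 1.81 and 2.53 at the lowest, median and highest MN1 culture and of -1.33, -0.15 and 0.82 in neurons, a difference of -1.62 ± 0.34 (edgeR adjusted p = 0.00277). Camta1, a transcriptional activator, differed by -1.48 ± 0.34 and Dennd4a, a Rab exchange factor, by -1.08 ± 0.28. In all 3 the cultures overlapped. The median TE of this list was 1.82 and 1.5 in the MN1 hTDP-43-A315T cultures and 0.21 to 0.77 in the other 4 MN1 cultures. With the hTDP-43-A315T cultures alone the difference was -2.20 for Camta1 and -1.79 for Dennd4a, and with the control cultures alone it was -0.47 and -0.57, neither of them called. With the hTDP-43 cultures alone it was -1.82 and -0.80, again not called. For Mid1ip1 it was -1.71 with the hTDP-43-A315T cultures alone and -1.70, not called, with the controls alone. The dependence on genotype of these 3 genes did not pass the test given below. Tardbp, the mouse TDP-43 gene, had a TE difference of 0.02 ± 0.14 (edgeR adjusted p = 0.948), with total mRNA of 320 CPM in MN1 cells and 79.2 CPM in neurons. Reads were aligned to the mouse genome with mismatches allowed. Reads from human TDP-43 in the cultures that expressed it may therefore be counted in Tardbp, which was not tested. Pth1r, a parathyroid hormone receptor, had too few counts in neurons to be fitted. Its TE was 0.98 to 2.79 in MN1 cells against -1.78 to 2.47 in neurons, where 6 of 8 footprint libraries held 1 to 8 counts.

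Calls were spread unevenly over annotated lengths. Genes were split into quintiles by the length of their 3′ UTR, taken from 1 annotated transcript for each of 6681 genes. In the quintile with the longest 3′ UTRs, from 2559 nucleotides, 3.74% of genes were higher in neurons and 13.5% lower. In the second quintile, 344 to 791 nucleotides, 10.1% were higher and 4.12% lower, and in the shortest, up to 343 nucleotides, 8.07% and 5.38%. The rank correlation of TE difference and 3′ UTR length was -0.14 across genes, which are not independent. TE itself correlated with 3′ UTR length at -0.31 to -0.20 in MN1 cultures and -0.45 to -0.14 in neuron cultures, which overlap. By coding length, the quintile of up to 750 nucleotides had 2.08% higher and 10.1% lower, and the fourth quintile, 1695 to 2625 nucleotides, 12.1% higher and 6.29% lower. Without the 2 Lars2-rich cultures, the quintile with the longest 3′ UTRs had 7.49% higher and 15% lower, and that with the shortest 10.7% and 11.9%. The quintile with the shortest coding sequences then had 2.23% and 20.1%. Ribosomal protein genes had a median coding length of 448.5 nucleotides and chaperones of 1632. Within single cultures, TE correlated with coding length at -0.21 to -0.11 in MN1 cells against -0.09 to 0.07 in 6 neuron cultures, and at -0.45 for WT replicate 3 and -0.26 for hTDP-43 replicate 3. Counts covered UTR exons as well as coding exons, and the part of UTR reads in these relations was not tested. In a limma fit on log2 TE adjusted for the UTR and coding lengths, 482 genes were higher and 397 lower. Limma on log2 TE without the adjustment called 361 higher and 277 lower. Of the 1039 genes called by edgeR, 734 were also called in the adjusted limma fit.

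**Figure D5:**
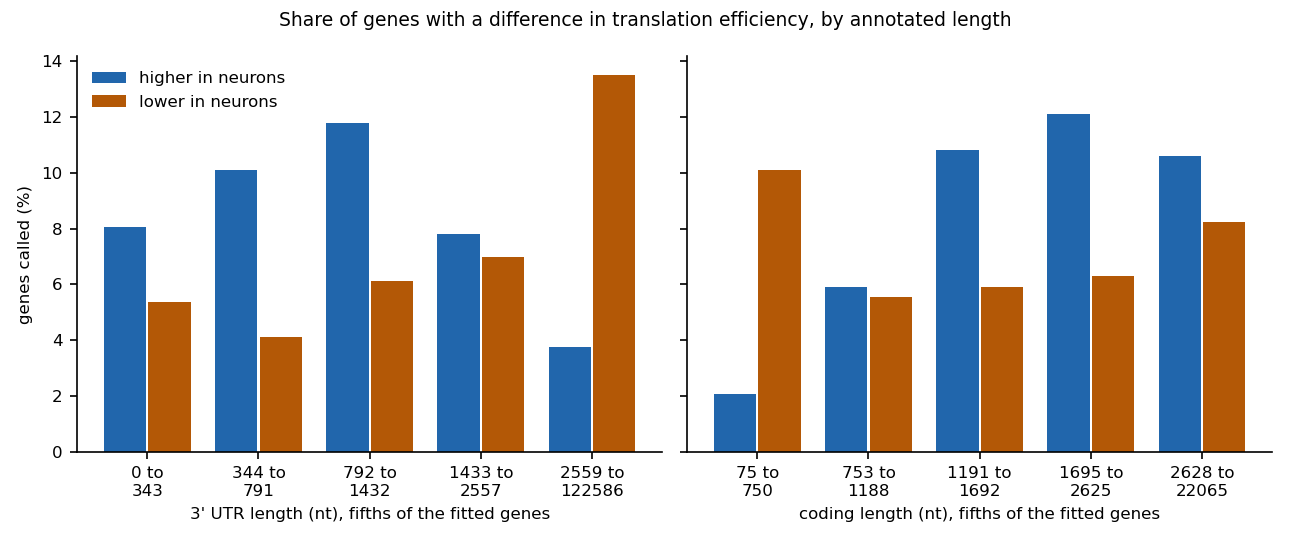
Share of fitted genes (vertical axis, percent) called higher (blue) or lower (orange) in neurons, by quintiles of annotated 3′ UTR length (left) and coding length (right), with the range of each quintile in nucleotides. Lower calls are most frequent for the longest 3′ UTRs, at 13.5%, and higher calls least frequent for the shortest coding sequences, at 2.08%.

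Upstream ATG codons went with lower TE in both cell types alike. The median TE was 0.11 in MN1 cells and 0.15 in neurons for the 3355 genes with no ATG in the 5′ UTR, and -0.31 and -0.28 for the 1100 genes with 3 or more. The median TE difference was 0.05 and 0.01 in those classes, and the shares of calls were 8.67% higher and 6.80% lower against 6.91% and 7.27%.

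The spread of TE over genes overlapped between the cell types. Over the 2110 genes measured in all cultures, the SD of log2 TE was 0.788 ± 0.0811 (SD, n = 6, 0.668 to 0.878) in MN1 cells and 0.823 ± 0.0970 (SD, n = 8, 0.714 to 0.964) in neurons, a difference of 0.0347 (two-sided exact permutation test over 3003 assignments, p = 0.485). The highest values were those of WT replicate 3 and hTDP-43 replicate 3 of the neurons. With 50 or more counts in all libraries, which left 199 genes, the spread was lower in neurons by a difference of -0.116 (exact permutation test, p = 0.00233). As a description, the correlation of TE over the 2110 genes was 0.81 to 0.92 between MN1 cultures, 0.51 to 0.96 between neuron cultures and 0.51 to 0.80 across cell types, which share base composition and differ in depth.

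No dependence of the cell type difference on genotype was detected with these cultures, which does not show that there is none. An edgeR test of whether the TE difference varied among the control, hTDP-43 and hTDP-43-A315T classes called 0 genes (0%). It put 78 of 6689 genes at an unadjusted p below 0.05, fewer than evenly spread p-values would. DESeq2's likelihood ratio test also called 0, with 42. The TE of the 2 neuron WT cultures, the only neuron controls, correlated at 0.52, near the lowest value between neuron cultures (0.51). Without neuron WT replicate 2, which left the neuron controls with WT replicate 3 alone, 7 genes were called. GFP transfection and a non-transgenic genotype are not the same control, and overexpression was transient in 1 cell type and transgenic in the other.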

How the data were processed

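Footprint and total mRNA libraries of 6 MN1 and 8 neuron cultures were analysed from gene counts. The authors trimmed reads (cutadapt 1.8.1), removed non-coding RNA (Bowtie2), aligned to GRCm38 (TopHat2) and deposited raw counts per gene over exons (featureCounts 1.4.4, no strand option named), 45513 genes a library. Biotypes and lengths came from GENCODE M21, and start sites from RefSeq. Genes with 10 or more counts in both libraries of at least 3 MN1 and 4 neuron cultures were fitted.

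The interaction of cell type and library type was tested with edgeR 4.0.16 (quasi-likelihood, TMM scaling, R 4.3.3) over all 28 libraries, with 1 term for each culture, since the footprint and total mRNA libraries came from the same culture. Same-culture libraries deviated together with r from 0.0155 to 0.433 (mean 0.191, over 0.1 in 10 of 14). For other cultures of the same group the mean was -0.134. Deviations within so small a group lean below 0 by construction, so that value is no test of the pairing. Benjamini-Hochberg adjustment ran over all genes fitted, with a threshold of 0.05. Per-culture log2 TE used a prior count of 2. The script was tested on simulated counts. Alternatives were DESeq2 1.42.0, limma 3.58.1, other scalings, filters and covariates, single genotype classes, and each culture left out.

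Named genes were the 12 largest differences in each direction among called genes with no overlap of cultures and 10 counts in every library, and up to 4 members of each list with the smallest adjusted p. Dnaja1, Hist1h1e, Hist1h4d, Hist3h2ba, Hist4h4, Rps27, Rpl39, Rps23, Vim, Tubb5, Tubg1 and Dpysl2 were named after their values were seen, and so were Pth1r and the marker genes. Some genes that this rule named are not reported here. The comparison, its lists and tests were chosen with earlier results of these data known. The labels number replicates, and the numbers follow the dates in the library titles, 2 for MN1 cells and 3 for neurons. Cultures of 1 date may share cells, embryos or handling, so p-values that count all 14 cultures as separate may be too small. The label date was added to limma as a random block, and 1 mean for each date was tested, both after the data were seen. The label of the GFP replicate 1 footprint library gives another year than the other MN1 libraries. Counts show precision from counting only.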

Additional observations from a re-analysis of the deposited data

Results flagged for a closer look

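In groups of 6 MN1 or 8 neuron cultures, the TE of the named genes, the median TE of the gene lists and the SD of TE over genes were searched for a single culture far from the rest by Dixon's test at the 95% level. Of 298 groups tested, 20 (6.71%) had such a culture, where chance gives about 1 in 20. The culture was WT replicate 3 of the neurons in 5 cases, MN1 hTDP-43-A315T replicate 2 in 5, hTDP-43 replicate 3 of the neurons in 4, hTDP-43 replicate 2 of the neurons in 3, MN1 GFP replicate 2 in 2 and MN1 hTDP-43 replicate 1 in 1.

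In WT replicate 3, the neuron culture with the most Lars2 counts, the median TE of selenoproteins was 0.88 (other neurons -0.51 to 0.10) and that of polyamine genes -0.23 (others -0.74 to -0.50). There, TE was 1.05 for Eno2, -0.43 for Eprs and -0.14 for Oaz2, an antizyme gene. In hTDP-43 replicate 3, with the fewest footprint counts, TE was -3.83 for Atp6v0e, -2.11 for Mrps5, 0.30 for Rpl22 and 1.26 for Sqle. In hTDP-43 replicate 2 of the neurons, it was -0.71 for Rps15a, 0.97 for mt-Nd5 and 0.20 for mt-Nd6.

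In MN1 hTDP-43-A315T replicate 2, the median TE of extracellular matrix genes was -0.0419 (other MN1 cultures 0.44 to 0.60) and that of mitochondrial ribosomal proteins 0.81 (others 0.50 to 0.60). TE there was -1.32 for Col4a2, 1.16 for Rpl22 and -1.48 for mt-Nd6. MN1 GFP replicate 2 stood apart at 0.42 for Atp6v0e and -0.61 for Tpt1, and MN1 hTDP-43 replicate 1 at 0.12 for Eno2.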

How the results depend on the processing

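Of the 1039 genes called, none changed sign under the alternatives, other than 6 with the control cultures alone and 2 with the hTDP-43 cultures alone. With the same 6689 genes, the higher and lower counts were 361 and 277 with limma on log2 TE, 332 and 299 with limma on centred TE, and 1778 and 189 with plain library totals. The higher count was 1226 with edgeR's own expression filter and 1267 with no filter, and the lower count was 183 with 10 counts in all 14 cultures, where fewer genes were tested. With alternatives chosen after the data were seen, they were 194 and 157 with the label date as a random block in limma (correlation of log2 TE within a date 0.109), and 6 and 11 with 1 mean for each label date, from fewer values. The control cultures alone gave 0 and 0, the hTDP-43 cultures 4 and 13, and the hTDP-43-A315T cultures 554 calls in all, 239 higher and 3.2e+02 lower, from fewer cultures. Without the 2 Lars2-rich neuron cultures 726 were lower. On leaving out 1 culture, the higher count ran from 353 (without hTDP-43-A315T replicate 3 of the neurons) to 653 and the lower count from 365 to 693 (both 653 and 693 without WT replicate 3). DESeq2 gave 488 and 561. The fit without the culture term (no replicate block) gave 457 and 391, and a replicate block by replicate number 657 and 598.

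The spread of TE turned from 0.0347 to -0.116 (exact permutation p = 0.00233) with 50 counts in all cultures, and the cause was not tested. On leaving out 1 culture it was 0.0110 to 0.0550. Genotype dependence called 7 genes without WT replicate 2 of the neurons and 0 without any other 1 culture. Of 3850 comparisons of the 123 named genes with an alternative, 3276 kept direction and side of the threshold, 449 lost the call and 87 gained it, and of 95 called named genes 13 lost it without some 1 culture. Of 800 list medians, 37 had the other sign. Depth limits the shallow neuron cultures, where 3 footprint counts are 15.6 and 18.1 CPM by plain library totals.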

Other observations

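GC content went with TE in both cell types. Over quintiles of the fitted genes by GC content of the 3′ UTR, the median TE ran from 0.41 in the lowest quintile to -0.42 in the highest in MN1 cells, and from 0.37 to -0.34 in neurons. By GC content of the coding sequence it ran from 0.31 to -0.40 and from 0.27 to -0.36. The TE difference itself varied little over these quintiles, with medians of -0.01 to 0.07 for the 3′ UTR and -0.03 to 0.10 for the coding sequence.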
